A study of Homo sapiens with 4 samples.

Results

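The genes examined were those of the USP12 deubiquitinase complex, its paralogs and its WD40-repeat partners, chosen by gene name. They were USP12, USP46, USP1, WDR48, WDR20 and DMWD, 6 of the 50868 genes counted, and all 6 were among the 15222 genes that passed the filter on low counts. Deubiquitinases remove ubiquitin, the small protein tag that marks other proteins for degradation or changes their activity. USP12 and USP46 are closely related enzymes with little activity of their own, and both are switched on by WDR48 (also named UAF1), a WD40-repeat protein. WDR20, a second WD40-repeat protein, raises their activity further, and DMWD is the paralog of WDR20. USP1 is the third enzyme that needs WDR48, and together they take ubiquitin off FANCD2, FANCI and PCNA in the repair of damaged DNA.

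RNA came from A549, a human lung adenocarcinoma cell line with a KEAP1 defect that keeps the NRF2 target genes high. There were 2 libraries from cells labelled control and 2 from cells labelled USP12-overexpressed, with no other treatment named. Per the study's methods, the overexpressed USP12 was a tagged coding sequence in a pLVX lentiviral vector, and the control cells of its A549 experiments carried the vector alone. Neither the promoter nor whether the cells were a pool or a clone is given in the sources used here. Nothing says that the 2 libraries of a group came from separate cultures, so the p-values measure only the spread between these libraries, which may be technical.

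The sequences of USP12 and USP46 were compared, which bears on whether fragments of the overexpressed USP12 could be counted as USP46. The coding sequences, of 1110 bases for USP12 and 1098 for USP46, were identical at 842 of 1092 aligned positions (77.1%). Their longest identical run was 20 bases, and 0 of the 1061 stretches of 50 bases in USP12 occurred in USP46. The 90 bases around the catalytic codon are shown for both genes, because this is the part of the enzyme that the study's inactive mutant alters. Capitals mark the 18 positions at which the genes differ, and the catalytic codon, number 48 in USP12 and 44 in USP46, is the tgc at bases 43 to 45.
USP12: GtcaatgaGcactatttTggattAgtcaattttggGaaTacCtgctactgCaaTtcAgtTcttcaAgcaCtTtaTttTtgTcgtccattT
USP46: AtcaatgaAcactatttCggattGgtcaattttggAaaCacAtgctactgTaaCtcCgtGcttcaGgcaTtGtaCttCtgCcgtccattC
In GRCh38, the USP12 bases lie on the minus strand in 2 exons, at chr13:27105885-27105944 and chr13:27116516-27116545. Those of USP46, also on the minus strand, lie at chr4:52628104-52628163 and chr4:52631064-52631093. WDR20 and DMWD were less alike, with 67.0% of aligned coding positions identical and a longest shared run of 22 bases. The most similar 90 bases of these WD40-repeat genes are shown in the same way, with 16 differences in capitals, at chr14:102208941-102209030 (plus strand) and chr19:45786444-45786533 (minus strand).
WDR20: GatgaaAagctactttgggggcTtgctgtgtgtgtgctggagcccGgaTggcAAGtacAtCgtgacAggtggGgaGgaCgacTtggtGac
DMWD: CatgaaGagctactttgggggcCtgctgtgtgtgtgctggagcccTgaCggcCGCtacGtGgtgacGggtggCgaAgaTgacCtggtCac

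USP12 (ENSG00000152484, chr13:27066156-27171811 of GRCh38, minus strand) was first examined in each library, as a check of the labels. It had 201 and 621 counts in control replicates 1 and 2, and 24235 and 32274 in USP12 replicates 1 and 2. As CPM, counts scaled to a common library total by TMM, its level was 15.2 and 34.4 in the controls, against 1745 and 2235 on overexpression. The labels thus match the counts, and every USP12 library lay far above every control library. These totals hold the vector's transcript and that of the cells' own gene together, and in RNA of many cells a few cells at a high level cannot be told apart from many at a lower one. USP12 took up 0.168% and 0.226% of all counts in the USP12 libraries, where it was the 42nd and 30th most counted of the tested genes, against ranks of 7563 and 4959 in the control libraries. The fitted change was 80.1-fold (95% interval 30.7 to 209), 6.32 on the log2 scale (standard error 0.57), and its adjusted p was 0.0975 by the quasi-likelihood test of edgeR. With this test 0 of 15222 genes (0%) reached an adjusted p under 0.05, whereas 1155 (7.59%) had an unadjusted p under 0.05, with 3.04% of the tested genes higher and 4.55% lower. When any 1 of the 4 libraries was left out, the log2 fold change of USP12 lay between 5.85 and 7.06. Its adjusted p was under 0.05 with edgeR's exact test and DESeq2, where 2.82% and 2.69% of all tested genes were. An exact permutation test of 1 gene with 2 libraries against 2 cannot go below p = 0.333.

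The paralog USP46 (ENSG00000109189, chromosome 4) had few counts in all 4 libraries. Control replicates 1 and 2 gave 27 and 175 counts (2.04 and 9.70 CPM), and USP12 replicates 1 and 2 gave 86 and 134 counts (6.19 and 9.28 CPM). Both USP12 libraries fell between the control libraries, so the groups overlapped. Counting error alone spans 1.35 to 2.97 CPM for control replicate 1 and 8.31 to 11.2 CPM for control replicate 2 (95% exact Poisson intervals, which cover counting error only), so the control libraries differed by more than counting error. The log2 fold change of USP46 was 0.39 (standard error 0.79, 95% interval -1.53 to 2.31, edgeR adjusted p = 0.970), an interval that runs from 0.346 to 4.97 times the control level. Its sign depended on the control library, at -0.32 without control replicate 1 and 1.94 without control replicate 2 (edgeR adjusted p = 0.0232).

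USP1 (ENSG00000162607, chromosome 1), the DNA repair enzyme of the group, had 152 and 877 counts in the controls, against 284 and 337 on overexpression. These were 11.5 and 48.6 CPM in the controls and 20.4 and 23.3 CPM with USP12. The USP12 libraries were close to each other and again lay between the controls, which differed 4.23-fold. The log2 fold change of USP1 was -0.46 (standard error 0.70, 95% interval -2.16 to 1.25, edgeR adjusted p = 0.964). With a single control library it passed the threshold in opposite directions, at -1.15 without control replicate 1 (edgeR adjusted p = 0.0223) and 0.96 without control replicate 2 (edgeR adjusted p = 0.0392). A direction for USP1 could therefore not be given.

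WDR48 (ENSG00000114742, chromosome 3), the activator shared by all 3 enzymes, was at 19.7 and 29.9 CPM in the controls, against 23.0 and 22.7 CPM on overexpression. The USP12 libraries were nearly equal and lay within the range of the controls. Its log2 fold change was -0.12 (standard error 0.44, 95% interval -1.19 to 0.95, edgeR adjusted p = 0.982). GORASP1 overlaps 1450 exonic bases of WDR48 on the opposite strand and had 352 to 875 counts, so the WDR48 counts are uncertain, as the use of strand in counting is not stated.

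WDR20 (ENSG00000140153, chromosome 14), the second activator of USP12 and USP46, varied least. It had 158 and 169 counts in the controls, against 152 and 160 on overexpression, or 12.0, 9.36, 10.9 and 11.1 CPM. The counting intervals of all 4 libraries overlapped, the lowest running from 8.01 to 10.9 CPM and the highest from 10.2 to 14.0 CPM, both in control libraries. The log2 fold change of WDR20 was 0.05 (standard error 0.45, 95% interval -1.06 to 1.15, edgeR adjusted p = 0.991). HSP90AA1 and MOK overlap 197 and 194 of its exonic bases on the opposite strand, with 2598 to 6089 and 146 to 303 counts, so its counts carry the same uncertainty.

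DMWD (ENSG00000185800, chromosome 19) had the highest level per kb of transcript among the partners in all 4 libraries, as given with the levels per length. It had 1004 and 822 counts in the controls, against 612 and 524 on overexpression, or 76.0 and 45.6 CPM against 44.1 and 36.3 CPM. Both USP12 libraries lay below both controls, although USP12 replicate 1 and control replicate 2 had overlapping counting intervals (40.6 to 47.7 and 42.5 to 48.8 CPM). Of all tested genes, 36.5% had groups that did not overlap and 17.0% were lower in both USP12 libraries than in both controls. DMWD had a log2 fold change of -0.60 (standard error 0.43, 95% interval -1.63 to 0.44, edgeR adjusted p = 0.889). The estimate for DMWD was -0.18 with control replicate 1 left out and -0.89 without control replicate 2 (edgeR adjusted p = 0.0227). AC011530.4 shares 455 exonic bases with DMWD on the same strand and had 6 to 20 counts.

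**Figure D1:**
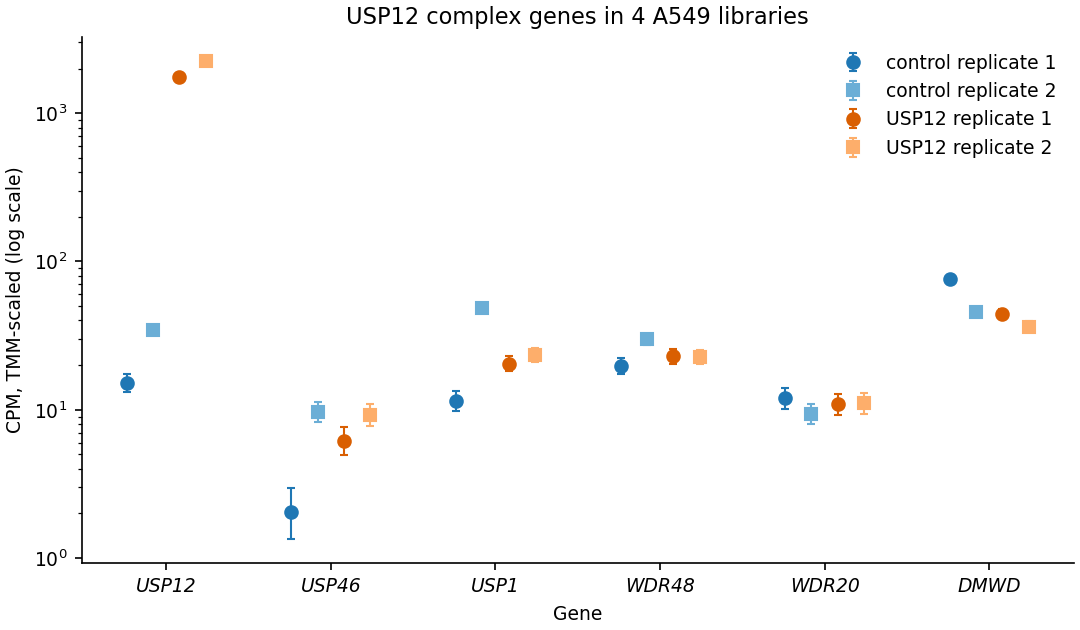
Level of each gene in CPM (log axis) in each of the 4 libraries, with 95% exact Poisson intervals for counting error. USP12 stood at 1745 and 2235 CPM in the USP12 libraries, whereas the other genes stayed under 100 CPM, and the widest gaps among these were between the 2 control libraries for USP46 and USP1.

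Of the 5 genes other than USP12, 0 had an adjusted p under 0.05 by edgeR's quasi-likelihood method, in its exact test or in DESeq2, and 0 had an unadjusted p under 0.05 in any of them. Over all tested genes the adjusted p was under 0.05 in 0% by the quasi-likelihood method, 2.82% by the exact test and 2.69% by DESeq2, and the unadjusted p in 7.59% by the first, so 0 of 5 is near these shares. With control replicate 2 left out 3 of the 5 passed, where 32.2% of all genes did, and with control replicate 1 left out 1 of the 5 passed, where 10.5% did. Their estimates were above 0 in 2 genes and below 0 in 3, where those of all tested genes were above 0 in 7057 and below in 8165. Their median log2 fold change was -0.12, against -0.06 over all tested genes. The intervals do not show that these transcripts were unchanged. They hold changes of at least 1.94-fold upward in 4 of the genes, and the interval of DMWD ran from 0.322 to 1.36 of the control level.

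Levels were next set side by side within each library, as CPM per kb of the canonical transcript, to compare the enzymes with their shared activator. In control replicates 1 and 2, DMWD was at 22.3 and 13.4 CPM per kb, WDR48 at 4.96 and 7.53, and WDR20 at 5.01 and 3.93. The enzymes were at 3.45 and 7.80 CPM per kb for USP12, 3.19 and 13.5 for USP1, and 0.258 and 1.22 for USP46. DMWD was thus above WDR48, WDR20 and USP12 in both control libraries per kb of transcript, though per kb of coding sequence USP12 (31.0) was above DMWD (22.5) in control replicate 2. The ranges of WDR48, WDR20, USP12 and USP1 per kb of transcript overlapped, so their order is not set. USP46 was lowest in all 4 libraries on this scale, but per kb of coding sequence it was lowest in only 2 of 4, WDR20 being lower in the others. In the USP12 libraries USP12 reached 395 and 507 CPM per kb, and DMWD was the next, at 12.9 and 10.6.

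The balance between the transcripts of the enzymes and of WDR48 shifted accordingly. Protein amounts were not measured, so the ratios do not give the proportions of the proteins in the complex. For USP12 the ratio to WDR48 was 0.695 and 1.04 in the controls, against 68.3 and 88.4 on overexpression. As the vector held only the coding sequence, the ratio was also taken per kb of coding sequence, which gave 1.41 and 2.11 in the controls and 139 and 180 with USP12. The coding sequence makes up 1110 of the 4412 bases of the USP12 transcript. The vector's USP12 is thus divided by too great a length per kb of transcript, and the cells' own by too small a length per kb of coding sequence. Neither length suits both groups, so the size of the shift in these ratios, and in the sums and shares that follow, is uncertain. USP12, USP46 and USP1 together were at 1.39 and 2.99 times the level of WDR48 in the controls, against 69.4 and 89.8 times in the USP12 libraries, per kb of transcript. Of that sum, USP12 made up 49.98% and 34.6% in the controls and 98.4% and 98.5% with USP12, and USP46 went from 3.73% and 5.43% to 0.194% and 0.228%. The level of USP46 itself did not differ between the groups beyond its spread. The USP12 level was 0.126 and 0.451 times that of WDR20 and DMWD combined in the controls, and 22.6 and 33.1 times with USP12, per kb of transcript. Per kb of coding sequence it was 0.307 and 1.11 times in the controls and 55.7 and 82.4 times with USP12.

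**Figure D2:**
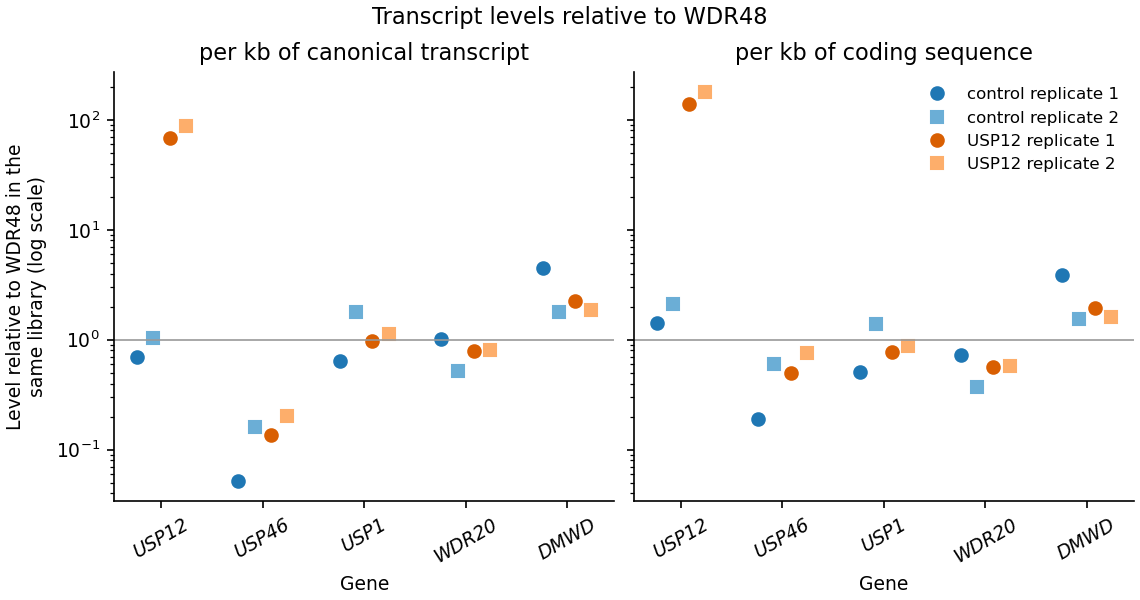
Level of each gene relative to WDR48 in the same library (log axis), per kb of canonical transcript at left and of coding sequence at right, with 1 point per library. Per kb of transcript, USP12 was near the level of WDR48 in the controls and at 68.3 and 88.4 times it in the USP12 libraries. Neither length suits both groups for USP12, so the size of this shift is uncertain. The points of the other genes from the USP12 libraries lay within or beside those of the controls.

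Because USP46 and USP1 varied most between the controls, the difference between these libraries was set against base composition and length over all genes. The log2 difference of control replicate 1 minus replicate 2 had a median of -0.98 over the 3019 genes of lowest GC content (28.6% to 41.1% of the transcript) and of 1.01 over the 3019 of highest GC content (58.6% to 76.0%). Between the USP12 libraries these medians were -0.08 and 0.10. USP12, USP46 and USP1, with 37.6%, 40.4% and 38.3% GC, were lower in control replicate 1 by 1.17, 2.17 and 2.07 on the log2 scale, while DMWD, with 65.4% GC, was higher by 0.74. WDR48, with 42.1% GC, was lower by 0.60. WDR20 went against the trend, higher by 0.35 in control replicate 1 although genes of its GC content and length had a median of -0.42. Long transcripts were also lower in control replicate 1, with a median of -0.80 over the 3019 longest (5483 bases or more) and 0.57 over the 3019 shortest. USP46, at 7932 bases, is among those longest.
After a per-library correction for GC content and length, an alternative added after the data were seen, the difference between the controls was -0.01 for USP12, -0.96 for USP46, -1.02 for USP1 and -0.34 for DMWD. It changed from -0.60 to 0.30 for WDR48 and grew from 0.35 to 0.66 for WDR20. In that fit the log2 fold changes were 6.33 for USP12 (edgeR adjusted p = 0.0141), 0.58 for USP46, -0.34 for USP1, -0.33 for WDR48, -0.21 for WDR20 and -0.31 for DMWD, and 0 of the 5 genes other than USP12 had an adjusted p under 0.05. Control replicate 1 also has another date-like prefix in its column heading than the other 3 libraries. What the prefix marks is not stated, and its part in the difference between the controls was not tested.

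**Figure D3:**
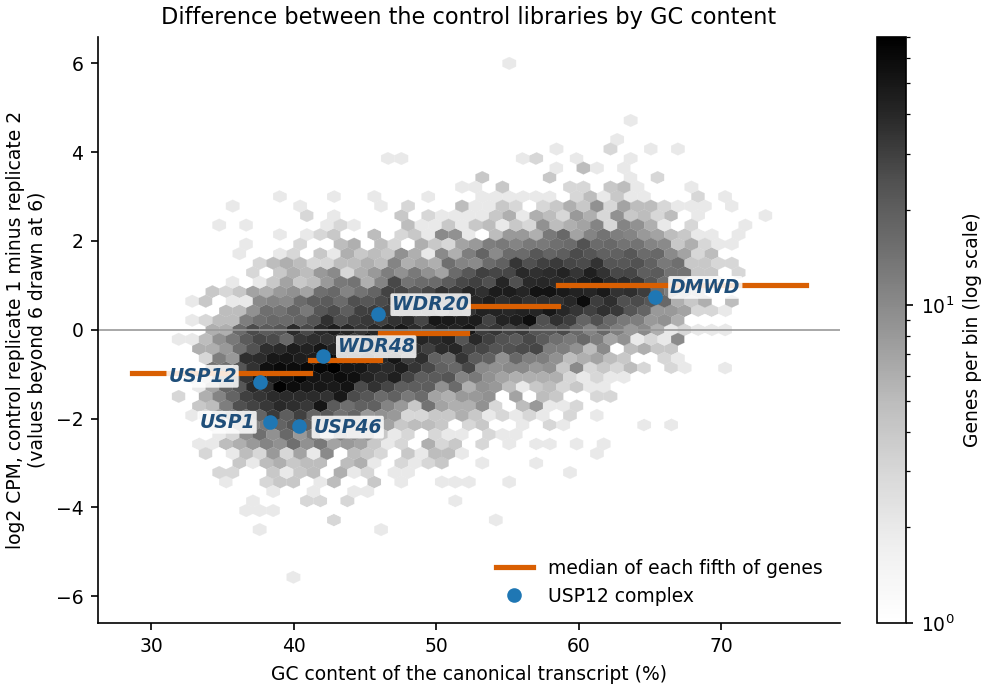
Difference in log2 CPM between control replicates 1 and 2 for each tested gene against the GC content of its transcript, with shading for the number of genes, bars for the medians of 5 bins of GC content and points for the 6 complex genes. The medians climbed from -0.98 to 1.01 with GC content, and USP12, USP46 and USP1 lay at the low-GC end, below 0, with DMWD at the high-GC end, above it.

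The transcripts of proteins reported as substrates of USP12 or USP46 were examined as a list of 6. A deubiquitinase acts on the protein, which was not measured here, so transcript levels do not bear on whether these are substrates. PPM1B, a phosphatase that restrains NF-κB signalling and the substrate the study worked on, had 22.7 and 53.8 CPM in the controls, against 34.8 and 38.5 CPM on overexpression. The USP12 libraries lay between the controls, and the log2 fold change was -0.06 (standard error 0.52, 95% interval -1.32 to 1.19, edgeR adjusted p = 0.991). Without control replicate 2 it was 0.72 (edgeR adjusted p = 0.0498), and without control replicate 1 it was -0.55. PHLPP1 and PHLPP2, phosphatases that switch off AKT, had log2 fold changes of 0.28 and -0.32, with intervals of -0.76 to 1.32 and -1.68 to 1.04. MDM2, the ubiquitin ligase of p53, and the receptor NOTCH1 stood at -0.16 and 0.04. DTL, a substrate receptor of a ubiquitin ligase active in DNA replication, had 12.2 and 26.5 CPM in the controls and 27.7 and 30.1 CPM with USP12 (log2 fold change 0.58).
Over the 6 genes, 0 had an adjusted p under 0.05 in edgeR's quasi-likelihood test, its exact test or DESeq2. Of all tested genes, 0%, 2.82% and 2.69% did in these tests. In the quasi-likelihood test 0 of the 6 had an unadjusted p under 0.05, where 7.59% of all tested genes did. These counts of 0 are near those shares. The median log2 fold change was -0.01, against -0.06 over all tested genes. Without control replicate 2 the median was 0.61 and PPM1B and DTL passed (DTL at 1.27, edgeR adjusted p = 0.0146), 2 of 6 where 32.2% of all genes did, and without control replicate 1 it was -0.42 and 0 of 6 passed. In PHLPP1 and DTL both USP12 libraries lay above both controls, 2 of 6, where 19.5% of all tested genes did so. Control replicate 1 was below control replicate 2 in 5 of the 6, where it was below in 7684 and above in 7538 of all tested genes.

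The USP1 branch was examined through the transcripts of 11 genes, as proteins were not measured. The genes were the substrates FANCD2, FANCI and PCNA, and FANCL, UBE2T and RAD18, which act in attaching ubiquitin to them. FANCL and RAD18 are ubiquitin ligase components, and UBE2T is a ubiquitin-conjugating enzyme. Also included were ATAD5 and RAD51AP1, which bring USP1 and WDR48 to their targets. The last were ID1, ID2 and ID3, inhibitors of differentiation that USP1 is known to stabilize. PCNA, the sliding clamp of DNA replication, had 88.8 and 167 CPM in the controls and 263 and 222 CPM with USP12. Both USP12 libraries were higher than both controls, with a log2 fold change of 0.92 (standard error 0.42, edgeR adjusted p = 0.737). For PCNA the estimate was 0.54 with control replicate 1 left out and 1.48 without control replicate 2 (edgeR adjusted p = 0.00770). FANCD2 had 9.99 and 30.6 CPM in the controls and 25.4 and 25.7 CPM with USP12 (log2 fold change 0.33), and FANCI had 18.5 and 49.2 CPM against 33.8 and 36.2 CPM (0.05). In both genes the USP12 libraries were close together between the controls, as for USP1 itself.
ID2 had 354 and 202 counts in the controls, against 907 and 732 on overexpression, or 26.8 and 11.2 CPM against 65.3 and 50.7 CPM. Both USP12 libraries were above both controls. Its log2 fold change was 1.61 (standard error 0.54, unadjusted p = 0.0236 and edgeR adjusted p = 0.501), rising to 2.37 when control replicate 1 was left out (edgeR adjusted p = 0.00416) and falling to 1.14 when control replicate 2 was (edgeR adjusted p = 0.0185). ID1 did not share this pattern, with 859 and 226 CPM in the controls and 290 and 238 CPM with USP12. It was above both USP12 libraries in control replicate 1 alone, and its log2 fold change of -1.04 became 0.23 without that library. ID3 stood at -0.21.
Over the 11 genes, 0 had an adjusted p under 0.05 in edgeR's quasi-likelihood test, its exact test or DESeq2. Of all tested genes, 0%, 2.82% and 2.69% did in these tests. ID2 alone, 1 of 11, had an unadjusted p under 0.05 in the quasi-likelihood test, where 7.59% of all tested genes did. The estimates were above 0 in 9 and below 0 in 2, where those of all tested genes were above 0 in 7057 and below in 8165. Their median log2 fold change was 0.16, against -0.06 over all tested genes. Several signs depended on which library was left out. Without control replicate 1, FANCD2, FANCI, RAD18 (-0.01) and ATAD5 turned below 0, and ID1 and ID3 above. Without USP12 replicate 2, FANCI (-0.02) and ATAD5 (-0.32) turned below 0 and ID3 (0.03) above. UBE2T turned below 0 without control replicate 2 (-0.03) and without USP12 replicate 1 (-0.01). Both USP12 libraries lay above both controls in 2 of 11, PCNA and ID2, where 19.5% of all tested genes did so. Without control replicate 2 the median was 1.14 and 8 of 11 passed, where 32.2% of all genes did, and without control replicate 1 the median was 0.19 and ID2 alone passed, where 10.5% of all genes did (edgeR's quasi-likelihood test).

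**Figure D4:**
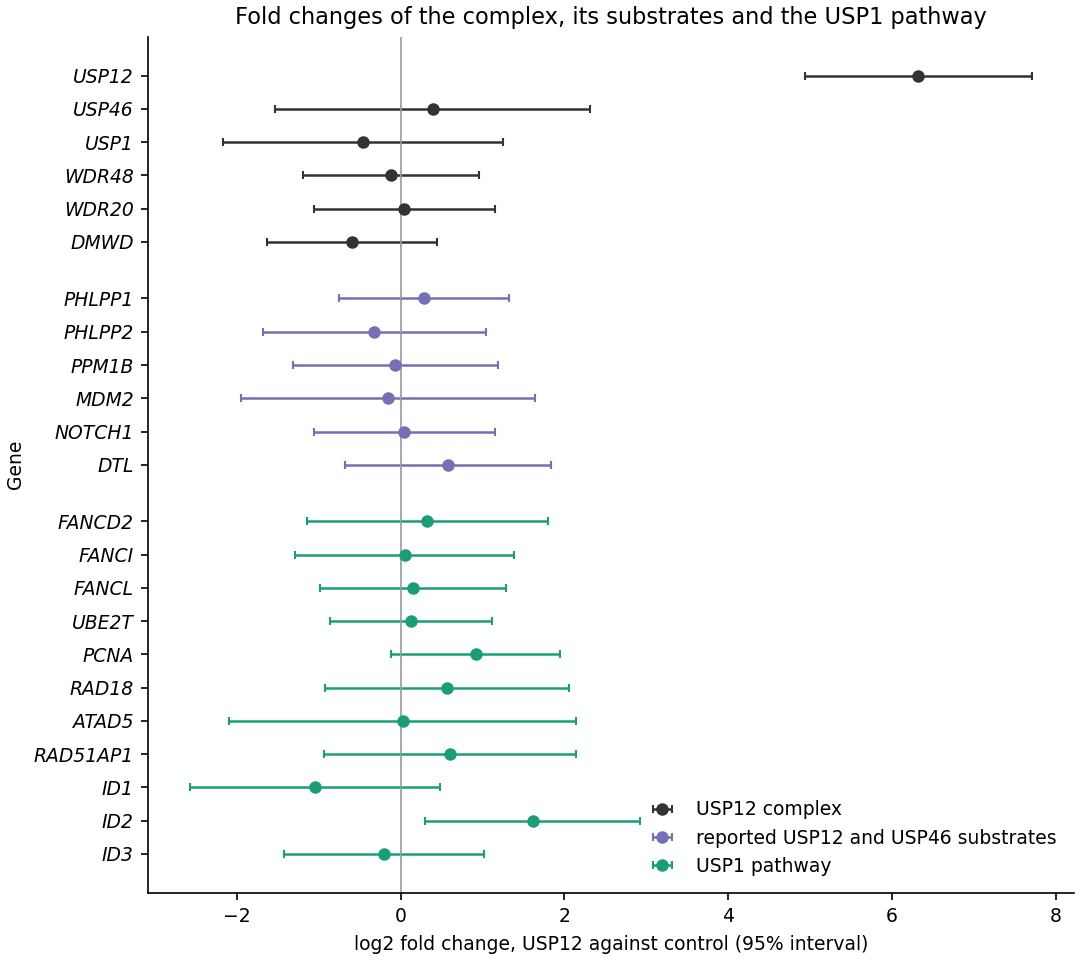
Log2 fold change of USP12 against control libraries with 95% intervals for the complex, the reported substrates and the USP1 pathway, from edgeR's quasi-likelihood fit of all 15222 genes. USP12 stood apart at 6.32, the interval of ID2 excluded 0 before adjustment for multiple tests, and the other intervals held 0.

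At the USP12 locus, 11 other annotated genes within 250 kb were counted. The antisense genes USP12-AS1 and USP12-AS2 had 0 counts in each library, which allows up to 0.166 to 0.227 CPM (3 counts). Of the 11, RPL21 and RASL11A passed the filter. RPL21, a ribosomal protein gene 79.6 kb away with many processed copies in the genome, had 155 and 141 counts in the controls and 143 and 132 with USP12. RASL11A, a small GTPase gene 99.0 kb away, had 155 and 13 counts in the controls and 56 and 75 with USP12. Their log2 fold changes were -0.01 and -0.42, neither with an adjusted p under 0.05, and that of RASL11A was -1.32 with control replicate 2 left out and 2.67 without control replicate 1, both with an adjusted p under 0.05 (edgeR).

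The 3 genes whose pattern was nearest to that of USP12, by the root mean square distance of centred log2 CPM over the 4 libraries, were CDH6 (0.27), GAB3 (0.32) and GREM1 (0.38). CDH6, a cadherin, had 0 and 4 counts in the controls and 227 and 202 with USP12. GAB3, an adaptor protein, had 0 and 1 counts, then 234 and 227. GREM1, a secreted BMP antagonist, had 0.530 and 1.44 CPM in the controls and 44.5 and 60.1 CPM with USP12. No other gene of the complex was among them, and none of the 3 had an adjusted p under 0.05 by edgeR's quasi-likelihood method (0.0975 to 0.166). The 3 were picked for this pattern in the same 4 libraries. A difference between the groups thus follows from the choice. Passing a test on it, or keeping its direction with 1 library left out, adds nothing. As for USP12, all 3 passed with the exact test and with DESeq2. GAB3 and GREM1, but not CDH6, passed after the GC content and length correction. All 3 stayed higher with USP12 when any 1 library was left out. Each had fewer than 10 counts in control replicate 1, so none was tested where at least 10 counts in every sample were required. CDH6 and GAB3, with at most 4 and 1 counts in a control library, passed the filter on low counts through the USP12 libraries alone.

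The libraries held 14280081 to 16305356 counts. The 7 A549 markers summed to 13713 and 9449 CPM in the controls and to 8298 and 7934 CPM with USP12. KRT8, KRT18, KRT19, EPCAM and NQO1 were lower in both USP12 libraries than in both controls, AKR1C1 was higher and AKR1B10 overlapped. Of all tested genes, 17.0% were lower and 19.5% higher in this way. Among these 7, KRT19, a keratin, had the widest change, from 437 and 114 CPM to 68.7 and 55.9 CPM (log2 fold change -2.14, edgeR adjusted p = 0.438). The immune markers PTPRC and CD3D had at most 1 count. The endothelial markers PECAM1 and CDH5 summed to 15.4 and 8.42 CPM in the controls, and to 0.432 and 1.32 CPM in the USP12 libraries. Their log2 fold changes were -2.69 for PECAM1 and -4.94 for CDH5 (edgeR adjusted p = 0.447 and 0.182). The fibroblast markers COL1A1 and PDGFRB summed to 13.0 and 2.60 CPM in the controls and 19.3 and 15.4 CPM with USP12. The part of these markers in the results was not tested.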

How the data were processed

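The authors deposited raw counts per gene for each of the 4 A549 libraries. Per the study's methods and the submitters' processing notes, stranded mRNA libraries were sequenced, adaptors and rRNA reads were removed with Seqtk, reads were mapped to GRCh38 with HISAT2 2.0.4, and uniquely mapped fragments were counted with StringTie 1.3.0. Neither the gene annotation nor whether strand was used is given in the sources used here.
Counts were scaled by TMM, filtered with filterByExpr and compared by the quasi-likelihood test in edgeR 4.0.16 (R 4.3.3) on 15222 genes, with Benjamini-Hochberg adjustment over all of them. The prior count for log2 CPM was 2. Standard errors were derived from the fold change and F statistic, and 95% intervals from them, so both are approximate. The fit was tested on simulated data. Positions, lengths and coding sequences came from GENCODE 44 (GRCh38). Alternatives included DESeq2 1.42.0, leaving out each library, and per-library offsets for GC content and length (lowess).
Members and lists were chosen with earlier results of these data known. Named genes were the members, 2 lists of substrates and USP1 pathway genes, tested genes within 250 kb of USP12 and the 3 nearest in pattern. 1 gene of the substrate list is not reported here and was left out of its counts.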

Additional observations from a re-analysis of the deposited data

How the results depend on the processing

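With 2 libraries per group the calls turned on the control libraries. Leaving out 1 library at a time moved the log2 fold change of USP12 between 5.85 and 7.06, of USP46 between -0.32 and 1.94, of USP1 between -1.15 and 0.96, of WDR48 between -0.39 and 0.24, of WDR20 between -0.09 and 0.24 and of DMWD between -0.89 and -0.18. Among the substrates, the sign turned for PHLPP2 (-0.75 to 0.32), PPM1B (-0.55 to 0.72), MDM2 (-0.82 to 1.17) and NOTCH1 (-0.28 to 0.50). In the USP1 pathway it turned for FANCD2 (-0.26 to 1.38), FANCI (-0.49 to 0.95), UBE2T (-0.03 to 0.34) and RAD18 (-0.01 to 1.58). It also turned for ATAD5 (-0.75 to 1.91), ID1 (-1.67 to 0.23) and ID3 (-0.69 to 0.59). Around USP12 it turned for RPL21 (-0.24 to 0.32) and RASL11A (-1.32 to 2.67). PHLPP1, DTL, FANCL, PCNA, RAD51AP1 and ID2 stayed above 0. Calls (adjusted p under 0.05) then ran from 0 to 3 for the 5 complex genes other than USP12, 0 to 2 for the substrates, 0 to 8 for the USP1 pathway, 0 to 1 for the genes around USP12, and over all genes from 12 to 2550 higher and from 28 to 2612 lower. In a fit that leaves a group with 1 library, that library is assumed to vary like the other group.

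USP12 kept its direction in every alternative and passed the threshold with no filter (6.33), DESeq2 (6.31), the exact test (6.32) and the GC content and length correction (6.33). It did not pass with DESeq2's size factors or with at least 10 counts in every sample, where 0 genes passed. The genes called higher and lower numbered 167 and 361 with no filter, 133 and 277 with DESeq2, 167 and 262 with the exact test, and 7 and 19 with the GC content and length correction. That correction turned the sign of WDR20 (-0.21), FANCI (-0.08), UBE2T (-0.02) and ID3 (0.15), and using no filter that of RPL21 (0.01). The cause was not tested. With no filter, with the replicate block and without either USP12 library, edgeR estimated infinite prior degrees of freedom, and the gene's own spread then did not enter the test.

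The groups share replicate numbers, but nothing says that the number marks a shared culture, and deviations of same-numbered libraries had a correlation of 0.15. With the replicate block, USP12 was at 6.43 and passed the threshold (edgeR adjusted p = 8.29e-34), USP46 was at 0.73 and USP1 at -0.12, neither passing, PPM1B at 0.06, MDM2 at 0.06, RPL21 at 0.02 and RASL11A at 0.54, with 153 genes called higher and 251 lower. When the replicate block was joined to the GC content and length correction, USP12 was at 6.33 and passed (edgeR adjusted p = 0.00215), USP46 was at 0.66 and USP1 at -0.25, neither passing, WDR20 at -0.17, FANCI at -0.05, ID3 at 0.15 and RASL11A at 0.28, with 83 higher and 143 lower. Both fits with this correction were added after the data were seen.

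Per kb of coding sequence in place of transcript, mean ratios to WDR48 became 1.76 for USP12 in the controls and 159.5 in the USP12 libraries, 0.396 and 0.627 for USP46, and, in the USP12 libraries, 0.827 for USP1 and 1.77 for DMWD. At these depths a level under 3 counts (0.166 to 0.227 CPM) could not be told from 0.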
